A study of Mus musculus with 8 samples.

Results

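Expression was followed for 10 genes that encode ribosomal proteins or their near copies: the paralogs Rpl39l, Rps4l, Rpl22l1, Rps27l and Rpl3l, and the genes they resemble, Rpl39, Rps4x, Rpl22, Rps27 and Rpl3, called parents here. Members were the probe sets that the array's annotation assigns to 1 member gene and to no other. This gave 14 of 45037 probe sets, for 9 of the 10 genes, out of 18193 genes in all. Both probe sets that name Rpl3 also name other genes, so Rpl3 has no value here. Rpl39l and Rps4l were selected on their array values, the loss of signal in Stat5a/b-null cells. Their difference between genotypes is therefore described without a test, whereas the other 7 measured genes, and the hormone response of all 9, were tested.

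The RNA came from mouse embryonic fibroblasts (MEFs), cultured connective tissue cells, of strain C57BL/6 at passage 13. Cells were wild type (called control) or lacked both Stat5a and Stat5b (called null). After 5 hours of starvation they received growth hormone (GH) at 1 ug/ml for 2 hours or were left without it. Each of the 4 combinations of genotype and hormone was run on 2 Affymetrix expression arrays, numbered 2 and 3 in the labels, which call them biological replicates. The labels do not say whether replicates came from separate embryos or cultures, so each p-value here reflects how far these arrays scatter, and any difference between the cultures of the 2 genotypes other than Stat5a and Stat5b cannot be told apart from the genotype.

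A ribosome has a small and a large subunit, each built of RNA and many proteins. Most ribosomal proteins in mammals come from 1 gene that is active in every cell, but some have a paralog used in certain tissues. RPL39 lines the tunnel through which the new protein leaves the large subunit, and Rpl39l is its paralog, known in mice from male germ cells. RPS4X and RPS27 belong to the small subunit, RPL22 and RPL3 to the large one. In mice the RPL22 protein represses Rpl22l1, Rpl3l is known from heart and skeletal muscle, and RPS27L is a target of the tumour suppressor p53 in human cells. RefSeq, on GRCm38.p6, lists Rps4l as a transcribed pseudogene and the other 9 genes as protein coding.

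The promoters of the 2 paralog and parent pairs with a sequence for both genes and a lower paralog in null cells are shown first. They are RefSeq windows of 300 bases on GRCm38.p6, 250 before and 50 after the annotated start, written 5′ to 3′ on the gene's strand. Capitals mark the core motif of ETS factors, CCGGAA or its reverse complement TTCCGG, a motif chosen after the sequences were read.
Rpl39l, chr16:10169978-10170277, plus strand: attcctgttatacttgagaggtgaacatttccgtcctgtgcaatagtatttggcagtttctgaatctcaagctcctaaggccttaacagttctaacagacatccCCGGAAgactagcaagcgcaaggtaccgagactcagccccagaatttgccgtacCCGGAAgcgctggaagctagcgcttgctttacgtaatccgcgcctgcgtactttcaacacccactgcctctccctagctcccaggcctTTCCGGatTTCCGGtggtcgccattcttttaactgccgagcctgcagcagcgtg
Rpl39, chrX:37085173-37085472, minus strand: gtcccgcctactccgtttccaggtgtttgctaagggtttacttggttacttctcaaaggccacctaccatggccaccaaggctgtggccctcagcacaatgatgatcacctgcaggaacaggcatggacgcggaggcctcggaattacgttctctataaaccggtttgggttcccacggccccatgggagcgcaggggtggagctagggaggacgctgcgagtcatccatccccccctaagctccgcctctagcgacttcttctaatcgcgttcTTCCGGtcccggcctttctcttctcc
Rps27l, first of 2 windows, chr9:66945836-66946135, plus strand: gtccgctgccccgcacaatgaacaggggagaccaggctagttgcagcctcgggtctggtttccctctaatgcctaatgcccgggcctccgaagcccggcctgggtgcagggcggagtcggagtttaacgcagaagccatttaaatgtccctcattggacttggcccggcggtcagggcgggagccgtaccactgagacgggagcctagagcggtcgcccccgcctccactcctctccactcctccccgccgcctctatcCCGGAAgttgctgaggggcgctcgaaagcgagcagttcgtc
Rps27, chr3:90213599-90213898, minus strand: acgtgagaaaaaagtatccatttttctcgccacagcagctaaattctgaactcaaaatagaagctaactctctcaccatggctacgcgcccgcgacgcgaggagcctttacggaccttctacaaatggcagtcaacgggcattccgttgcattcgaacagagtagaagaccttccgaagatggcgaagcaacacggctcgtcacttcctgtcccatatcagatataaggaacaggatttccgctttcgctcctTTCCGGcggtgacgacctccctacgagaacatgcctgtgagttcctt

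The Rpl39l window held the ETS core 4 times, with first bases at -146, -92, -4 and 5 counted from the start site, and the Rpl39 window held it once, at 25. Rps27l, in its first window, and Rps27 each held 1 match, at 10 and 4. The second Rps27l window and the windows of Rps4x, Rpl22l1, Rpl22 and Rpl3l held none. Over the first window of each of 27025 genes, 15.2% held this motif on either strand. Of 54 other ribosomal protein genes with a window, 27 held it (50.0%). The letters of the STAT motif, TTCNNNGAA, which read the same on both strands, were in none of the windows of the 8 member genes matched by symbol, against 8.47% of first windows of all genes. The motifs can share letters, but no member window held both. A match is a description of the letters and not of binding.

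Stat5a and Stat5b themselves were read first as a check of the labels. Both Stat5a probe sets lay between 7.13 and 7.83 on the log2 scale in control cells and between 4.32 and 5.84 in null cells. For Stat5b, 1 probe set lay between 8.21 and 8.48 in control and between 4.96 and 5.42 in null cells, and the other between 7.89 and 8.06 and between 6.93 and 7.33. Which exons were deleted, and so whether these probe sets lie in them, is not known here. The fibroblast genes Col1a1 and Col1a2 lay between 14.20 and 14.89 on all 8 arrays. Of 12 fibroblast markers, 5 were higher and 1 lower in null cells in both hormone states, with log2 differences from -0.97 to 4.32 without GH. Of all genes, 24.8% were called higher and 22.7% lower without GH, and 22.2% and 23.1% with GH. The mean level of the 12 markers ran from 12.97 to 13.07 on control and from 13.88 to 14.02 on null arrays. Replicate arrays correlated between 0.997 and 0.998 over all probe sets. The deposited values carry no detection call. The first quartile of all gene values, 6.10, was taken as the level below which a signal is dim and not set apart from background.

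Rpl39l stood high in control cells and dim in null cells. Its probe set, 1423327_at, read 11.09 and 11.62 on the control arrays without GH, 11.25 and 11.09 with GH, 4.90 and 5.03 on the null arrays without GH and 5.22 and 5.11 with GH. The lowest control array was far above the highest null array. The control mean of 11.26 ± 0.25 (SD, n = 4) lay above 87.9% of all gene values and the null mean of 5.06 ± 0.14 (SD, n = 4) above 11.8%. Because the null level is dim, no fold difference is given.

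Rps4l showed the same separation. Its probe set, 1452730_at, read 10.71 and 10.96 in control cells without GH, 10.79 and 10.57 with GH, 4.94 and 4.89 in null cells without GH and 4.55 and 4.84 with GH. All 4 null arrays were dim, and none came near a control array. The control mean of 10.76 lay above 82.9% of gene values and the null mean of 4.80 above 9.40%. In bulk RNA, fewer cells that make a transcript and less transcript per cell cannot be told apart, which holds for every difference described here.

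**Figure D1:**
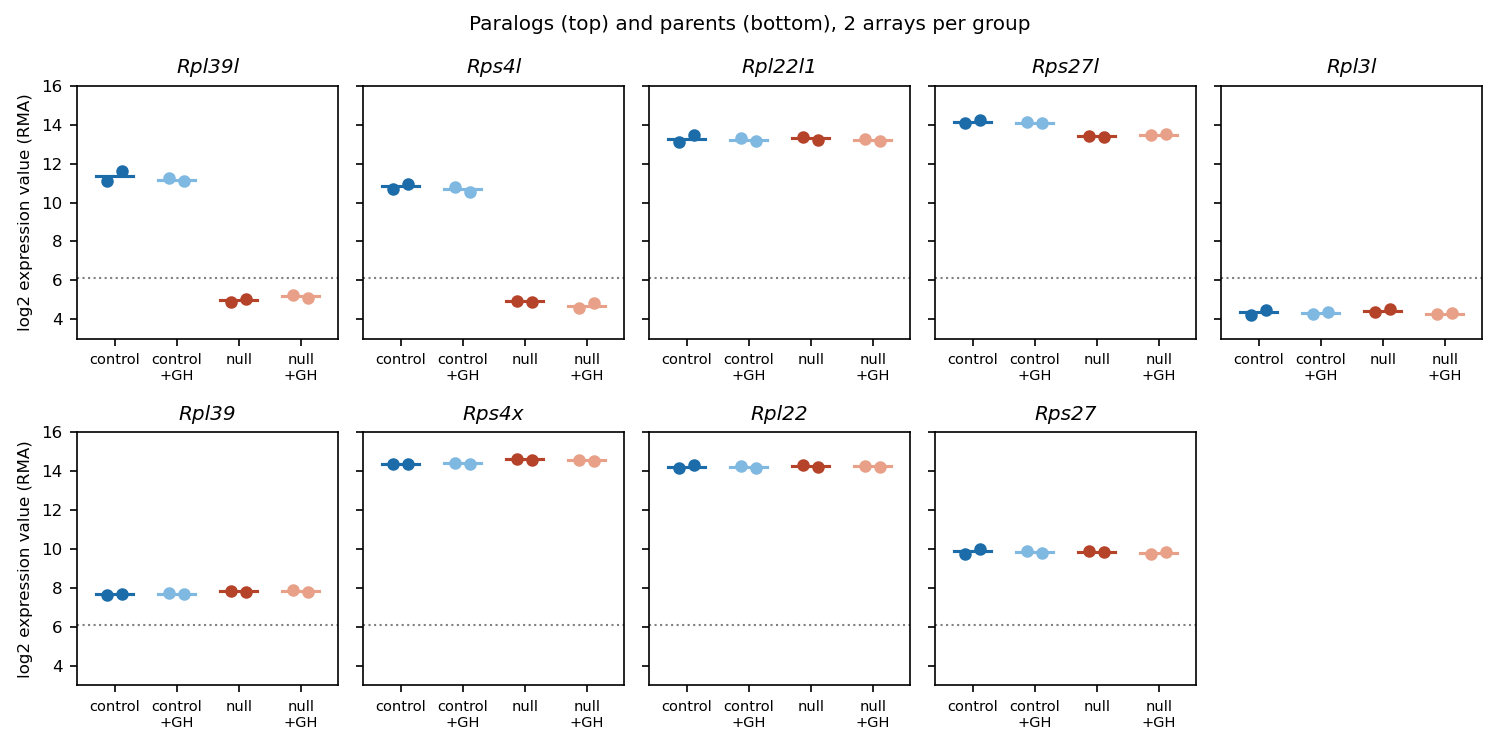
Log2 expression values (vertical axis) of the 9 measured genes on the 8 arrays, with paralogs in the top row and their parents below. Points are arrays in the order 2 and 3, short lines are group means, and the dotted line is the first quartile of all gene values (6.10). Rpl39l and Rps4l fall below that line in null cells, Rpl3l lies below it everywhere, and Rps27l is lower in null cells by less than 1 unit.

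Neither parent of these 2 genes was lower in null cells. Rpl39, measured by 1423032_at, read 7.62, 7.70, 7.73 and 7.68 on control arrays and 7.86, 7.81, 7.87 and 7.77 on null arrays. The 4 null arrays all lay above the 4 control arrays, but the difference did not pass the test (log2 difference 0.18 ± 0.09 SE, limma adjusted p = 0.122 without GH, and 0.12 ± 0.09, adjusted p = 0.319 with GH). The control mean of Rpl39 lay above 46.3% of all gene values and the null mean above 47.9%. The 40 other ribosomal protein genes had a mean level from 13.57 to 13.72 on the arrays. How well this probe set reads Rpl39 is not known here. A further probe set shared by Rpl39 and Gm32211 was not used. Rps4x, measured by 1416276_a_at near the top of the scale, read 14.37, 14.40, 14.44 and 14.37 on control arrays and 14.66, 14.61, 14.59 and 14.53 on null arrays. It was 1.19-fold higher in null cells without GH (0.25 ± 0.09 SE, limma adjusted p = 0.0313), and with GH the difference was 0.15 ± 0.09 (adjusted p = 0.174).

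The Rps4x call was not firm. It was lost when any 1 of 6 arrays was left out, namely either array of control cells without GH, of control cells with GH or of null cells without GH (adjusted p from 0.0521 to 0.12). It was also lost after centring each array on its median (adjusted p = 0.0512), in a fit of the 2 groups alone (0.0716) and with the Rps4x probe sets averaged (0.0824). With GH the difference passed when the prior spread followed intensity (adjusted p = 0.0384). The second Rps4x probe set, 1420303_x_at, was near the first quartile, between 6.06 and 6.32, and did not pass the test. The suffixes _x_at and _s_at mark probe sets whose probes can match more than 1 transcript, which matters for ribosomal protein genes because of their many processed copies.

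Rps27l was lower in null cells, and its parent Rps27 did not pass the test. The Rps27l probe set 1423254_x_at read 14.08 and 14.23 in control cells without GH, 14.17 and 14.07 with GH, 13.45 and 13.36 in null cells without GH and 13.46 and 13.54 with GH. The genotypes did not overlap. The level was 1.68-fold lower in null cells without GH (-0.75 ± 0.09 SE, limma adjusted p = 2.67e-05, from 1.43e-07 to 0.000623 over the alternatives) and 1.53-fold lower with GH (-0.62 ± 0.09, adjusted p = 0.000135, from 1.34e-06 to 0.00334). All 3 Rps27l probe sets were lower when each probe set was tested alone. In that test 1435429_x_at gave -0.50 ± 0.10 without GH (adjusted p = 0.00172) and 1450925_a_at gave -0.62 ± 0.12 (adjusted p = 0.00151), where 19.6% of all probe sets were called lower. With GH these 2 gave -0.45 and -0.58 (adjusted p = 0.00338 and 0.00256, with 17.7% of probe sets called lower).

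Rps27, measured by 1460699_at, read 9.73, 10.03, 9.88 and 9.77 on control arrays and 9.91, 9.84, 9.75 and 9.86 on null arrays, which overlapped. A further probe set shared with Rps27rt was not used, so Rps27 rests on 1 probe set. The control mean of that probe set lay above 71.4% of all gene values, and how well it reads Rps27 is not known here. The log2 difference of Rps27 without GH was -0.01, with a 95% interval from -0.24 to 0.23. The Rps27l value minus the Rps27 value on the same array lay between 4.20 and 4.35 in control cells and between 3.52 and 3.71 in null cells. This difference fell by 0.67 from control to null arrays (exact two-sided permutation test over 4 and 4 arrays, p = 0.0286, the smallest this design allows, and 0.0571 adjusted over the 2 pairs tested). Among 19 measured p53 target genes, the group to which Rps27l is counted in human cells, 17 were lower and 2 higher in null cells without GH (22.7% and 24.8% of all genes). Their log2 differences ran from -5.06 to 1.62, with a median of -2.01. With GH 15 were lower and 2 higher (23.1% and 22.2% of all genes). The part of p53 in the Rps27l difference was not tested. Cdkn1a, the p53 target that encodes the inhibitor p21, lay between 13.76 and 13.93 in control and between 9.52 and 9.80 in null cells. It was named outside the rule for named genes and does not stand for the list.

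Rpl22l1 and Rpl22 showed no difference past the test in either genotype comparison. Rpl22l1, measured by 1417126_a_at, read 13.10, 13.47, 13.34 and 13.15 on control arrays and 13.35, 13.25, 13.30 and 13.16 on null arrays. The spread within control cells without GH (SD 0.26, n = 2) exceeded the difference between genotypes, which was 0.01 without GH (95% interval from -0.26 to 0.28) and -0.01 with GH (from -0.28 to 0.26). Leaving out array 2 or 3 of control cells without GH moved the first of these to -0.17 or 0.19. The brightest Rpl22 probe set, 1453118_s_at, lay between 14.17 and 14.31 on all 8 arrays, and its intervals ran from -0.19 to 0.21 and from -0.17 to 0.23. The other Rpl22 probe sets, 1416603_at and 1448398_s_at, lay between 12.98 and 13.24 and between 10.98 and 11.26, and neither passed the test. Rpl22l1 minus Rpl22 moved by -0.02 between genotypes (exact two-sided permutation test over 4 and 4 arrays, p = 0.686, also 0.686 adjusted over the 2 pairs).

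Rpl3l was dim on every array, between 4.22 and 4.52, as 1449398_at. No level or difference of this muscle paralog could be measured above background.

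Of the 7 genes tested between genotypes, 1 was lower and 1 higher without GH (22.7% of all genes were called lower and 24.8% higher, 47.5% in either direction). With GH, 1 of the 7 was lower and 0 were higher (23.1% of all genes were called lower, 22.2% higher and 45.3% either way). For 3 of the 7, Rpl39, Rps4x and Rps27l, the 4 control and 4 null arrays did not overlap, a property that 47.0% of all genes had. The members' shares do not exceed these backgrounds.

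**Figure D2:**
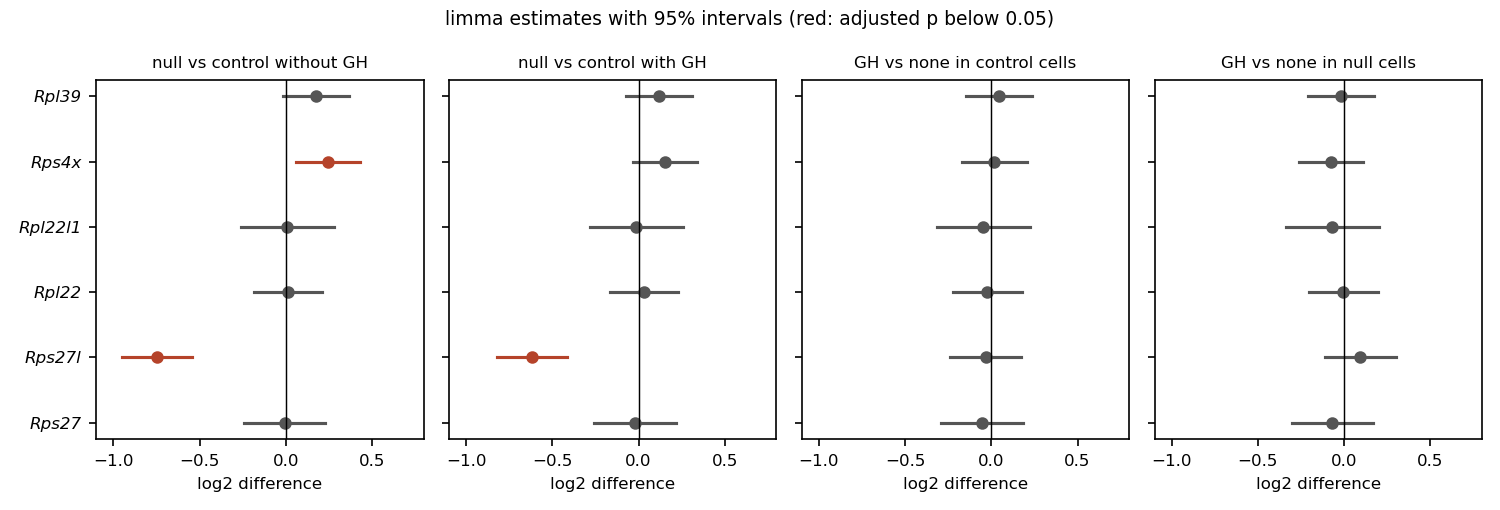
Log2 differences (horizontal axis) of the 6 tested genes that were not dim, in 4 comparisons, with limma's 95% intervals. Red marks an adjusted p below 0.05: Rps27l in both genotype comparisons (-0.75 and -0.62) and Rps4x without GH (0.25), with no gene marked in the GH comparisons.

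None of the 9 measured genes passed the test for a response to growth hormone. In control cells the log2 differences between GH and none ran from -0.18 for Rpl39l to 0.04 for Rpl39, with 0 of 9 called by limma and 0 at an unadjusted p under 0.05 (lowest adjusted p = 0.808), where 2.62% of all genes were called. The 95% intervals there ran from -0.50 to 0.13 for Rpl39l and from -0.43 to 0.11 for Rps4l. In null cells 0 of 9 were called by limma, again 0 at an unadjusted p under 0.05 (lowest adjusted p = 0.285), against 11.7% of all genes. The 6 genes that were not dim there ranged from -0.07 to 0.09.

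The response to GH was not shown to differ between genotypes for any of the 9 (limma interaction, 0 called and 0 at an unadjusted p under 0.05, lowest adjusted p = 0.375, against 5.16% of all genes). The largest interaction was that of Rpl39l, 0.39 ± 0.21 SE, which rests in part on its dim level in null cells. It was 0.65 when control array 2 without GH was left out, which leaves 1 array in that group. Rpl39l was selected for its loss in null cells, and the interaction is computed from the same values, so it is not independent of that selection.

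Within control cells without GH, array 3 read higher than array 2 for all 9 measured genes, by 0.03 to 0.53. The same held for 33 of 40 other ribosomal protein genes and for 43.5% of all genes. In control cells with GH, array 3 was the higher one for 1 of the 9 members and 6 of the 40 (46.1% of all genes). In null cells without GH it was the higher one for 2 and 10 (53.5%), and in null cells with GH for 4 and 21 (58.8%). For most members and other ribosomal protein genes, array 3 was thus the higher one in one control group and the lower one in the other. For Rps4x, with a genotype difference of 0.25 without GH, array 3 minus array 2 was 0.03 in control cells without GH, the lowest of the 9 there. It was -0.08 in control cells with GH, and -0.05 and -0.06 in null cells without and with GH. The part of this spread in the results was not tested.

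**Figure D3:**
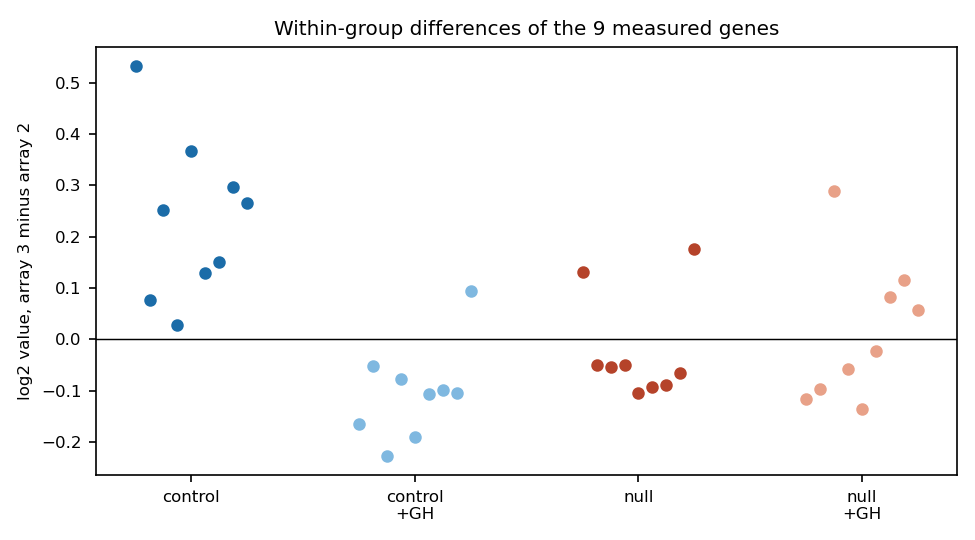
Log2 value on array 3 minus that on array 2 (vertical axis) in each of the 4 groups, 1 point per measured gene. All 9 points lie above 0 in control cells without GH, and 8 of 9 lie below 0 in control cells with GH.

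The genes whose centred profile over the 8 arrays lay closest to each paralog were taken from 13718 genes that were not dim on average. For Rpl39l these were Ctss, the lysosomal protease cathepsin S (root mean square difference 0.20 on the log2 scale), and the complement genes C1qc (0.22) and C1qa (0.23). For Rps4l they were C1qa (0.11), the IGF-binding protein gene Igfbp2 (0.13) and C1qc (0.14). Rpl39l and Rps4l were chosen for this pattern, so the likeness is a description. Rps27l was closest to Ccnh, a cyclin of the kinase that activates other cyclin-dependent kinases (0.03), the proteasome subunit gene Psmb3 (0.04) and Meaf6 (0.04). Rpl22l1 was closest to Tomm20, a receptor for import into mitochondria (0.04), the splicing protein gene Snrpe (0.05) and Lnpk (0.05).

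Markers of other cell types were set beside the loss of Rpl39l and Rps4l. Every gene of the macrophage and leukocyte list (10 of 10) was called lower in null cells, with and without GH (23.1% and 22.7% of all genes), and their summed level, as log2, ran from 14.61 to 14.81 on control and from 11.09 to 11.38 on null arrays. Lyz2 lay between 13.78 and 13.96 in control and between 8.44 and 8.71 in null cells, and Ptprc, the leukocyte antigen CD45, fell from between 9.14 and 9.63 to a dim level. Of 12 germ cell and testis markers, 9 or 10 were dim in each group, the germ cell helicase gene Ddx4 was dim on all 8 arrays, and Prm1 lay between 7.40 and 7.76. Of 6 pluripotency markers 5 were dim in each group, Pou5f1 and Nanog among them. The skeletal muscle list had 9 to 11 of 15 members dim, with Ckm between 6.97 and 7.44, while Acta1 stood at 12.79 to 12.96 in control and at 6.57 to 7.05 in null cells. The part of these cell types in the paralog values was not tested.

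With each gene's brightest probe set and no intensity trend, fewer of the other ribosomal protein genes were called between genotypes than of all genes. Of 74 listed genes, 40 had a probe set of their own, and without GH 4 of these were higher and 2 lower in null cells (24.8% and 22.7% of all genes), with a median log2 difference of 0.09 against 0.03 for all genes. The counts were 13 higher and 3 lower when the prior spread followed intensity, and 8 and 5 with each gene's probe sets averaged. The share of all genes called under such alternative settings is not given here, so these counts have no background beside them. Rps6 (0.87 ± 0.10 SE), a small subunit protein phosphorylated when growth signals are on, Rpsa (0.37 ± 0.08), Rps18 (0.28 ± 0.08) and Rps28 (0.24 ± 0.08) were higher, and Rpl12 (-0.87 ± 0.11) and Rps19 (-0.30 ± 0.09) were lower. The Rps28 call was lost without any 1 of 5 arrays (adjusted p up to 0.128), the Rps18 call without array 2 of either untreated group (up to 0.0852) and the Rps19 call without array 3 of either untreated group (up to 0.081). With its 6 probe sets averaged, Rps18 differed by 0.09 (adjusted p = 0.361). With GH, 6 were higher and 3 lower (22.2% and 23.1% of all genes, median 0.07 against -0.02), or 12 and 5 when the prior spread followed intensity, and 4 or 5 were called in total when any 1 array with GH was left out.

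GH changed 0 of the 40 in control cells by limma (1 at an unadjusted p under 0.05, with 2.62% of all genes called) and 2 in null cells, 1 up and 1 down (11.7% of all genes). Rpl12 rose in null cells (0.78 ± 0.11, adjusted p = 0.000939) and differed by -0.42 ± 0.11 in control cells (adjusted p = 0.0893, or 0.0403 at the lowest, without 1 array of untreated null cells). Its values were 9.67 and 9.84 in control cells without GH and 9.36 and 9.31 with GH. They were 9.05 and 8.72 in null cells without GH and 9.67 and 9.66 with GH. The untreated null arrays stood lowest, and Rpl12 was named for its low level there. Of 4 further paralogs listed, 1 was measured. Rpl7l1, a paralog of Rpl7, was higher in null cells without GH (0.47 ± 0.09, adjusted p = 0.00058) and with GH (0.86 ± 0.09, adjusted p = 3.9e-06), reading 11.01, 11.06, 10.85 and 10.77 on control and 11.50, 11.51, 11.64 and 11.70 on null arrays.

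Genes for the assembly of ribosomes were mostly lower in null cells without GH. Without GH 32 of 47 were lower and 3 higher (22.7% and 24.8% of all genes), with a median of -0.53 against 0.03 for all genes. With probe sets averaged, 30 were lower and 4 higher and the median was -0.35. Rrp12 (-1.87 ± 0.10 SE), needed for export of the subunits, Mdn1 (-1.49 ± 0.12), an ATPase of large subunit maturation whose other 2 probe sets were dim and not called, and Utp20 (-1.42 ± 0.10), of the small subunit processome, stood lowest. Nob1 (0.61 ± 0.09), the nuclease that finishes the small subunit RNA, Utp4 (0.49 ± 0.09) and the RNA polymerase subunit gene Polr1c (0.41 ± 0.09) were the 3 called higher. A second Polr1c probe set gave 1.38 (adjusted p = 3.16e-06 among all probe sets), and the average of both gave 0.89, above Nob1. With GH 21 were lower and 9 higher (23.1% and 22.2% of all genes, median -0.15 against -0.02). That split was 20 and 13 after centring on array medians, and 16 and 14 with a median of -0.08 with probe sets averaged.

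In null cells GH raised 19 of the 47 assembly genes by limma (5.36% of all genes were called higher there and 11.7% either way). It lowered 0 of them, also 0 at an unadjusted p under 0.05. In control cells GH lowered 1, Nop58, named after its values were seen, and raised 0 (2.62% of all genes were called either way). At an unadjusted p under 0.05, 4 were lower and 0 higher in control cells with GH. The count of 19 fell to 10 or 11 without either null array with GH or null array 2 without GH, and the Nop58 call was lost without any 1 array other than the null arrays without GH. Rrp12 rose by 0.69 ± 0.10 and Mdn1 by 0.67 ± 0.12 in null cells. The response differed between genotypes for 15 of the 47, all more positive in null cells (2.83% of all genes), a count that fell to between 6 and 9 without any 1 array of null cells or of control cells with GH. The lower level in null cells without GH, the rise with GH and the interaction all use the same untreated null arrays, so they are not separate results. No p for the list was computed, since it was drawn up with earlier results of these data known.

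**Figure D4:**
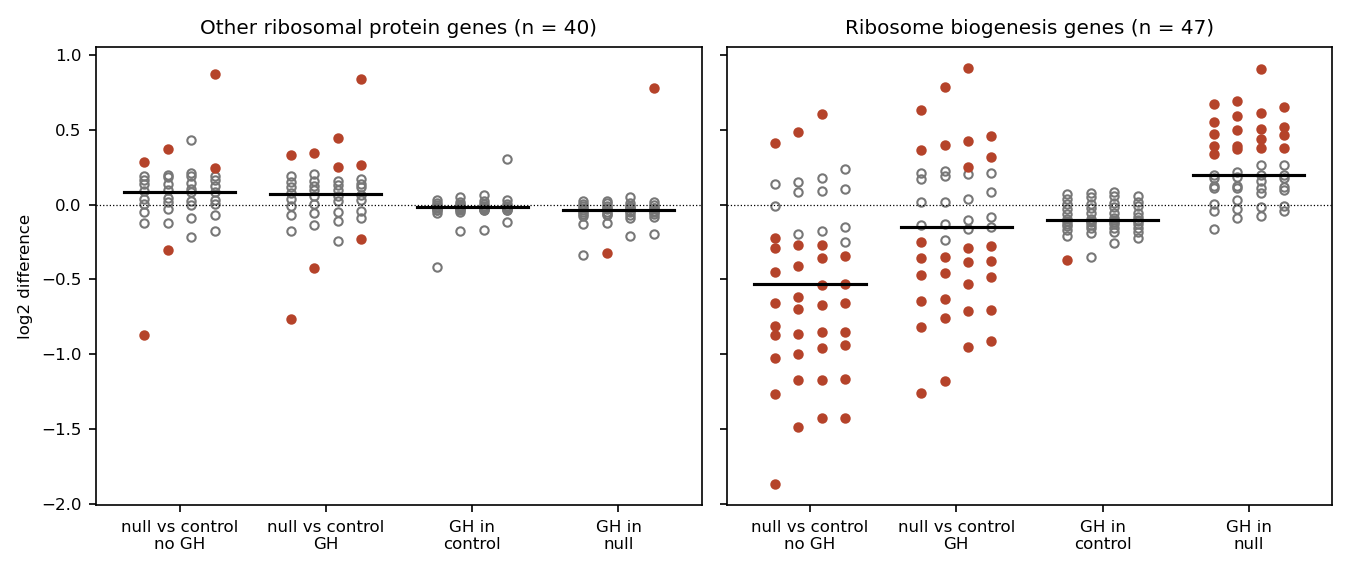
Log2 differences (vertical axis) of 40 other ribosomal protein genes (left) and 47 ribosome biogenesis genes (right) in 4 comparisons, 1 point per gene. Filled red points passed limma's test at an adjusted p below 0.05 and black lines are medians, which lie at 0.09 and -0.53 for null against control without GH.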

How the data were processed

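The authors deposited log2 expression values from Partek 6.10.0511 and RMA (robust multi-array averaging), as named in the submitters' processing notes. RMA corrects background, equalises the arrays and summarises the probes of a set, which can pull bright values together, and no setting is given in the sources used here. Probe sets were named from the platform annotation, with symbols updated through Entrez identifiers. Of 45037 probe sets without controls, 34945 had 1 gene, 932 several and 9160 none. A gene was represented by its probe set with the highest mean. A linear model over the 8 arrays, with a mean for each group, was fitted in limma 3.58.1 (R 4.3.3), with Benjamini-Hochberg adjustment over 18193 genes and a threshold of 0.05, after a test on simulated data. Every adjusted p and 95% interval is limma's unless a permutation test is named. The number of arrays limits the precision (median residual SD 0.097).

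The members, the gene lists, the dim level and the rule for named genes were chosen with earlier results of these data known. Named were the members, the 3 highest and 3 lowest called genes of each ribosome list that were not dim, called further paralogs, and the 3 closest profiles of 4 paralogs. Stat5a, Stat5b and the defining markers of the cell types were also named. Cdkn1a and Nop58 were named outside this rule. The Rpl3l and Rpl3 pair, planned for the permutation test, had no Rpl3 value. Titles gave the groups and the replicate numbers, also for 1 untreated null array whose source label has 3 and whose title has 2.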

Additional observations from a re-analysis of the deposited data

Results flagged for a closer look

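The GH response of 4 named genes of the ribosome lists differed between genotypes by limma's interaction term, each more positive in null than in control cells. The difference of the log2 responses was 1.20 ± 0.16 SE for Rpl12 (adjusted p = 0.000891), 0.73 ± 0.16 for Mdn1 (adjusted p = 0.0231), 0.69 ± 0.15 for Rrp12 (adjusted p = 0.0193) and 0.51 ± 0.13 for Utp20 (adjusted p = 0.0492). For each of these genes the untreated null arrays stood lowest of the 4 groups, and both null arrays with GH read above both without. The 4 genes were named for their low level in untreated null against untreated control cells, so this low standing follows from the choice. The interaction subtracts that same difference, so its sign and p-values are not independent of the choice. In control cells the arrays with and without GH overlapped for Mdn1, Rrp12 and Utp20. The Rpl12 call held without any 1 array. The calls of Mdn1, Rrp12 and Utp20 were lost without 4, 5 and 7 of the 8 arrays in turn, with adjusted p up to 0.114, 0.0975 and 0.155. The other Mdn1 probe sets were dim and gave -0.28 and -0.18 for the interaction. None of the 9 measured paralogs and parents was singled out in this way, and groups of 2 arrays were too small for a check of outlying samples.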

How the results depend on the processing

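The Rps27l calls held under all 18 alternatives in both genotype comparisons, and no result reversed. Of the 7 tested members without GH, 2 were called as reported and 1 after centring on array medians, in a fit of the 2 groups alone, with probe sets averaged or with a 1.5-fold minimum (1 to 2 without single arrays). With GH, 1 was called, and 2 with an intensity trend. For interactions, 0 were called and 0 to 1 without single arrays. The other ribosomal protein genes called without GH numbered 6, against 16 with a trend, 13 with probe sets averaged and 2 with the fold minimum. With GH they numbered 9, against 17 and 2 for trend and fold minimum, and 4 to 9 without single arrays. For GH in control cells they numbered 0, 1 with a trend and 0 to 1 without single arrays, and for GH in null cells 2, against 1 under either rescaling, without dim genes, with the replicate block or the fold minimum, and 1 to 2 without single arrays. Interactions numbered 1, and 1 to 2 without single arrays. Assembly genes fell with the fold minimum from 35 to 23 without GH, from 30 to 13 with GH and from 19 to 6 for GH in null cells (10 to 19 without single arrays). For GH in control cells the 1 call became 0 with probe sets tested alone, in the 2 groups alone, with the block or the fold minimum (0 to 1 without single arrays). Interactions ranged from 6 to 11 without single arrays against 15. The causes were not tested, apart from the fold minimum, which removes calls by construction.

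With the replicate number as a block, Rps27l minus Rps27 had p = 0.0556 in the exact permutation test, the smallest that design allows (-0.67, and from -0.70 to -0.64 without single arrays), and the interaction calls of assembly genes numbered 10. Tested members called under the block were 2 without GH and 1 with GH. Deviations of same-numbered arrays correlated between -0.28 and 0.13 across genes, so no strong shared deviation was seen. This cannot show whether same-numbered arrays shared a culture. The conflicting number of 1 untreated null array limits it further.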
